A study of Mus musculus with 24 samples.

Results

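The 9 genes described here are members of the Wnt pathway, taken by name from a list of 5 ligands (Wnt4, Wnt5a, Wnt7a, Wnt7b and Wnt10a), 1 receptor (Lgr4), 1 secreted inhibitor (Sfrp1) and 2 genes that canonical Wnt signaling is known to switch on (Axin2 and Lef1). They are 9 of the 55421 mouse genes in the deposited count table, and all 9 were among the 18046 genes that passed the filter on low counts. Type 2 alveolar epithelial cells (AEC2s), the surfactant-producing progenitors of the lung alveolus, came from wild-type mice (Krt8+/+, WT) and from mice with a global knockout of Krt8 (Krt8-/-, KO), so that the gene for keratin 8 was missing from every cell type and not from AEC2s alone. RNA was taken from cells as isolated (day 0) and from cells kept in 2D culture for 1, 3 and 7 days. This gave 24 libraries in 8 groups of 3. The libraries were sorted into 3 isolations by a code in their labels. The code reads as a date, but the labels do not say what it stands for. No group received another treatment, and the age and background strain of the mice were not given in the sources used here. The study asked how keratin 8 and culture on a flat surface bear on the passage of AEC2s through a keratin-rich transitional state toward type 1 cells (AEC1s).

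Wnt proteins are lipid-modified ligands that bind Frizzled receptors and co-receptors on nearby cells. In the canonical branch, binding spares β-catenin from degradation, and β-catenin joins TCF/LEF factors on DNA to switch on target genes such as Axin2, whose product feeds back to restrain the pathway. In other branches, for which Wnt5a is the best known ligand, the signal acts on cell polarity and movement without β-catenin. In the adult lung, a subset of AEC2s is known to be Wnt responsive and marked by Axin2, and Wnt5a is known as a ligand made by fibroblasts beside them.

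Total counts per library ranged from 10184439 to 19483386. Krt8 itself was at 485 to 5092 CPM (counts scaled to library size with TMM factors) in WT libraries and at 21.2 to 47.4 CPM in KO libraries. The 9 AEC2 markers summed to at least 261700 CPM in each day 0 library and at most 3192 CPM in each day 7 library, so that the label of the starting cells matched their markers. Libraries of both genotypes stood apart at 2 points. On day 1, Sftpc was at 12170 (WT) and 11440 CPM (KO) in isolation 2, and at 48250 CPM or more in isolations 1 and 3. On day 7, the collagen gene Col1a1 was at 760 (WT) and 1260 CPM (KO) in isolation 3, and at 375 to 443 CPM in isolations 1 and 2. In isolation 1 the WT libraries had Xist at 62.4 to 79.5 CPM and Y-linked genes at 0.441 CPM or less, while the KO libraries had Y-linked genes at 173 to 191 CPM, so that sex and genotype cannot be told apart within it. Both genotypes showed the female pattern in isolation 2 and the male pattern in isolation 3.

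Most of these genes differed between day 0 and day 7 in both genotypes, with both directions among the ligands and among the target genes. By day 7 the ligands Wnt10a, Wnt7a, Wnt7b and Wnt5a, the receptor Lgr4 and the nuclear factor Lef1 were higher than on day 0, while Axin2 and the ligand Wnt4 were lower. Sfrp1 was the only member that did not pass the test on day 7 in either genotype. By day 1 in WT cells 3 of the 9 members were called higher and 1 lower, when 54.7% of all tested genes were called (26.2% higher, 28.5% lower). By day 3 the calls were 5 higher and 1 lower, beside 54.0% of all genes (26.1% higher, 27.8% lower). By day 7 they were 6 higher and 2 lower, beside 58.8% (28.6% higher, 30.2% lower). KO cells had 4 members higher and 1 lower by day 1, beside 50.6% of all genes (23.7% higher, 26.9% lower). By day 3 this was 5 higher and 1 lower, beside 52.0% (25.4% higher, 26.6% lower), and by day 7 it was 6 higher and 2 lower, beside 58.5% (28.6% higher, 29.9% lower). The counts of called members on days 1 and 3, both directions together, thus lay near what all genes gave. By direction, more members were called higher than lower on these days, which was not so over all genes. The median log2 fold change of the 9 members on day 7, with Wnt10a set at its lower bound, was 2.19 in WT and 2.48 in KO cells, where the median over all genes tested was 0 in WT and 0.0024 in KO cells. Because the members were chosen with earlier results of these data known, these contrasts with all genes are descriptions and no test of the pathway. In cells measured in bulk, fewer cells of a type and less RNA per cell cannot be told apart, for these and for all later values. All tests were quasi-likelihood F tests of edgeR, adjusted by Benjamini-Hochberg over 18046 genes, with a threshold of 0.05.

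**Figure D1:**
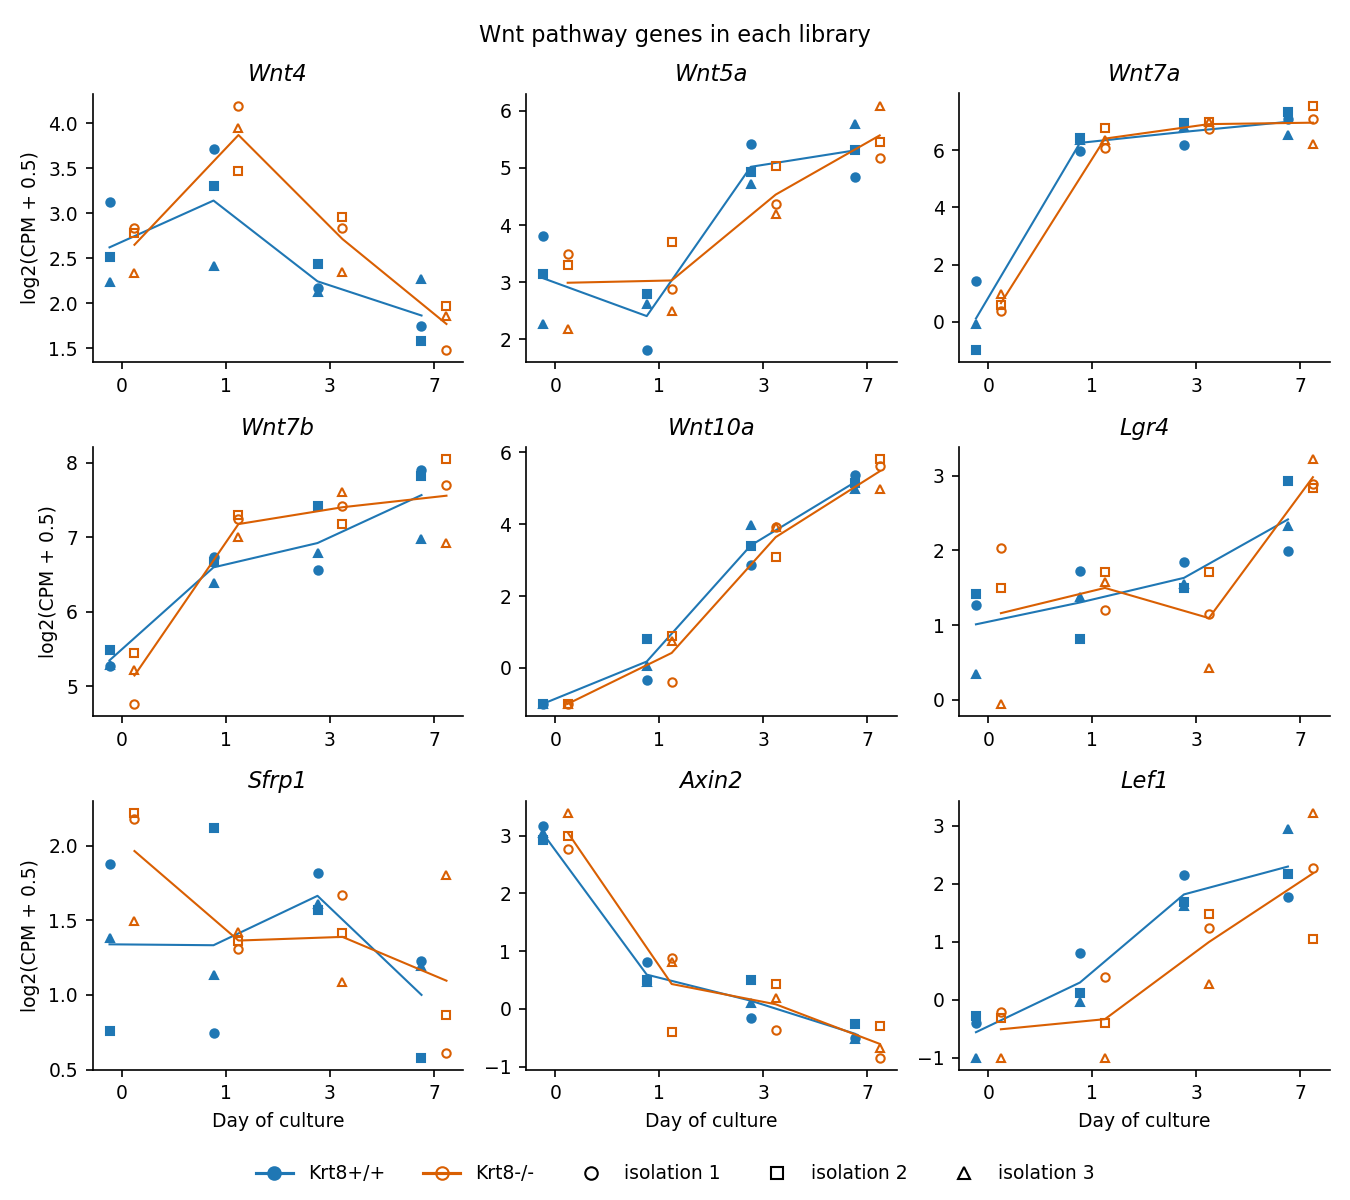
Level of each of the 9 genes in each library, as log2(CPM + 0.5) on the vertical axis, by day of culture on the horizontal axis (days are evenly spaced). Filled blue symbols are WT and open orange symbols KO libraries, the symbol shape gives the isolation, and lines join the means of 3 libraries. Wnt10a goes from no count on day 0 to at least 31.0 CPM in each day 7 library, and Axin2 goes from at least 6.33 CPM to at most 0.332 CPM.

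Wnt10a (ENSMUSG00000026167, plus strand, chr1:74791516-74804179 of GRCm38), a ligand of the canonical branch, went from no read to a level well above detection. The WT libraries had no read in any of 3 on day 0, 4, 15 and 8 reads on day 1 in isolations 1, 2 and 3, 103, 154 and 270 on day 3, and 598, 426 and 468 on day 7. The KO libraries had no read on day 0, 3, 21 and 15 reads on day 1, 213, 133 and 208 on day 3, and 855, 712 and 492 on day 7. In both genotypes each library lay above each library of the preceding day. Set against 3 counts for the whole day 0 group, a floor that covers counting error only, WT levels of days 1, 3 and 7 were at least 7.59-fold, 124-fold and 404-fold higher. The bounds for KO cells were 12.1-fold, 149-fold and 548-fold. The adjusted p of edgeR on day 7 was 1.2e-08 in WT and 6.4e-09 in KO cells. From day 1 to day 3 the log2 fold change was 3.96 (standard error 0.51, adjusted p = 3.7e-05 in edgeR) in WT and 3.68 (0.49, 6.1e-05) in KO cells, and without isolation 2 it was 4.68 and 4.27. Wnt10a also rose from day 3 to day 7, by a log2 fold change of 1.74 (standard error 0.41, adjusted p = 0.015 in edgeR) in WT and 1.86 (0.41, 0.0068) in KO cells. That step lost its call in WT cells without isolation 1 (adjusted p = 0.119 in edgeR) or isolation 2 (0.148), and in KO cells without isolation 2 (0.130).

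Wnt7a (ENSMUSG00000030093, minus strand, chr6:91363981-91411363), a ligand that can act in both branches, rose by day 1. WT libraries were at 2.16, 0 and 0.443 CPM on day 0 in isolations 1, 2 and 3 (34, 0 and 4 reads), at 62.4, 86.1 and 82.1 CPM on day 1, at 71.6, 123 and 112 CPM on day 3, and at 137, 163 and 92.4 CPM on day 7. KO libraries were at 0.792, 1.01 and 1.47 CPM on day 0 (11, 10 and 19 reads), at 67.3, 111 and 81.0 CPM on day 1, at 107, 128 and 128 CPM on day 3, and at 138, 188 and 74.7 CPM on day 7. Every cultured library lay above every day 0 library, and the libraries of neighbouring days of culture overlapped. The log2 fold change over day 0 was 6.20 on day 1 (standard error 0.53, adjusted p = 1.1e-08 in edgeR), 6.61 on day 3 and 6.96 on day 7 in WT cells, and 6.30, 6.78 and 6.92 in KO cells. Neither later step passed the test in either genotype, with 0.41 from day 1 to day 3 (adjusted p = 0.446 in edgeR) and 0.35 from day 3 to day 7 (0.685) in WT cells, and 0.48 (0.375) and 0.14 (0.879) in KO cells. The size of the first step rests on 38 (WT) and 40 (KO) reads on day 0, and 34 of the 38 were in isolation 1. With single isolations left out, the WT value of day 1 lay between 5.73 and 8.52, that of day 3 between 6.07 and 9.01 and that of day 7 between 6.37 and 9.13, the highest each time without isolation 1.

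Wnt7b (ENSMUSG00000022382, minus strand, chr15:85535437-85582473), the closest relative of Wnt7a in the family and a ligand that the distal lung epithelium is known to make during development, was already present on day 0. The WT levels were 38.1, 44.5 and 38.5 CPM on day 0, 106, 102 and 83.2 CPM on day 1, 93.7, 171 and 110 CPM on day 3, and 239, 226 and 125 CPM on day 7. The KO levels were 26.7, 43.1 and 36.9 CPM on day 0, 151, 156 and 127 CPM on day 1, 170, 145 and 196 CPM on day 3, and 208, 264 and 121 CPM on day 7. All cultured libraries lay above all day 0 libraries, and on day 7 isolation 3 was the lowest in both genotypes. In WT cells the log2 fold change was 1.26 on day 1 (standard error 0.27, adjusted p = 6.4e-04 in edgeR), 1.63 on day 3 and 2.29 on day 7 (0.28, 6.9e-07), and in KO cells it was 2.03, 2.26 and 2.48.

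Wnt5a (ENSMUSG00000021994, plus strand, chr14:28504750-28527448), the ligand best known for the branch without β-catenin, rose after day 1. In the WT libraries it was at 13.5, 8.34 and 4.32 CPM on day 0, 3.01, 6.44 and 5.64 CPM on day 1, 42.1, 29.8 and 25.9 CPM on day 3, and 28.1, 39.2 and 54.0 CPM on day 7. In the KO libraries it was at 10.7, 9.42 and 4.02 CPM on day 0, 6.91, 12.6 and 5.14 CPM on day 1, 20.2, 32.3 and 17.8 CPM on day 3, and 35.4, 43.2 and 67.5 CPM on day 7. Day 1 overlapped day 0, and the libraries of days 3 and 7 lay above both. The log2 fold change over day 0 in WT cells was -0.82 on day 1 (standard error 0.45, adjusted p = 0.129 in edgeR), 1.88 on day 3 (0.44, 0.0010) and 2.19 on day 7 (0.44, 2.2e-04). In KO cells it was 0.04 on day 1 (adjusted p = 0.953 in edgeR), 1.54 on day 3 (0.0053) and 2.60 on day 7 (4.1e-05). The WT value of day 1 passed the test without isolation 3 (-1.22, adjusted p = 0.030 in edgeR), and the KO call of day 3 was lost without isolation 2 (1.44, 0.065). From day 1 to day 3 the log2 fold change was 2.697 (standard error 0.45, adjusted p = 2.1e-04 in edgeR) in WT and 1.51 (0.43, 0.016) in KO cells, and the KO call was lost without isolation 1 (1.49, 0.067) or 2 (1.64, 0.083). The day 7 values became 2.88 without isolation 1 in WT and 1.96 without isolation 3 in KO cells, and both passed.

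Wnt4 (ENSMUSG00000036856, plus strand, chr4:137277489-137299726), a ligand known from kidney and reproductive tract development, was the only ligand of the 5 that ended below its day 0 level. WT libraries were at 8.20, 5.20 and 4.21 CPM on day 0, 12.6, 9.36 and 4.82 CPM on day 1, 4.001, 4.92 and 3.86 CPM on day 3, and 2.86, 2.49 and 4.31 CPM on day 7. KO libraries were at 6.62, 6.38 and 4.56 CPM on day 0, 17.8, 10.6 and 14.9 CPM on day 1, 6.65, 7.29 and 4.58 CPM on day 3, and 2.29, 3.43 and 3.13 CPM on day 7. The groups of days 0 and 7 did not overlap in KO cells, while in WT cells isolation 3 was at 4.31 CPM on day 7 and 4.21 CPM on day 0. Its transcripts shared 44 stretches of 50 bases with those of Lgr5 and Pygo1, so that its counts are less certain. The log2 fold change on day 1 was 0.59 (standard error 0.34, adjusted p = 0.142 in edgeR) in WT and 1.302 (0.34, 0.0032) in KO cells, and a call in 1 genotype alone does not show that the genotypes differed. From day 1 to day 3 it fell in both, by 1.07 (0.34, adjusted p = 0.025 in edgeR) and 1.22 (0.34, 0.012) on the log2 scale. That WT call was lost without isolation 1 (-0.69, adjusted p = 0.268 in edgeR), without isolation 2 (-1.14, 0.128) and in a fit of only the libraries compared (-1.06, 0.085), and the KO call without isolation 1 (-1.10, 0.107) or 3 (-1.02, 0.070). On day 7 it was below day 0 by a log2 value of -0.87 (0.35, adjusted p = 0.036 in edgeR) in WT and -0.99 (0.35, 0.018) in KO cells. These day 7 calls were lost without isolation 1 (-0.46 and -0.73, adjusted p = 0.403 and 0.174 in edgeR) or isolation 2 (-0.73 and -0.98, 0.218 and 0.105), and the WT call was also lost with no filter on low counts (0.075) and in a fit of only the libraries compared (0.076).

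Lgr4 (ENSMUSG00000050199, plus strand, chr2:109917647-110014257), the receptor through which R-spondins strengthen Wnt signals, was low throughout and highest on day 7. The WT libraries had 30, 20 and 7 reads on day 0 (1.91, 2.17 and 0.775 CPM), 38, 15 and 31 on day 1, 47, 36 and 43 on day 3, and 51, 86 and 68 on day 7 (3.47, 7.13 and 4.51 CPM). The KO libraries had 50, 23 and 6 reads on day 0 (3.60, 2.33 and 0.464 CPM), 20, 43 and 32 on day 1, 25, 46 and 12 on day 3, and 121, 85 and 138 on day 7 (6.92, 6.62 and 8.80 CPM). The day 7 libraries lay above those of day 0 in both genotypes. The log2 fold change on day 7 was 1.62 (standard error 0.54, adjusted p = 0.014 in edgeR) in WT and 1.80 (0.53, 0.0062) in KO cells, and no earlier day passed. Without isolation 2 the WT call was lost (1.60, adjusted p = 0.090 in edgeR), as was the KO call without isolation 3 (1.18, 0.057). The KO value was 2.50 (0.013) without isolation 1.

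Sfrp1 (ENSMUSG00000031548, plus strand, chr8:23411502-23449632) encodes a secreted protein that binds Wnt ligands and is known as an inhibitor. Reads in WT libraries numbered 50, 11 and 19 on day 0 (3.18, 1.19 and 2.10 CPM), 16, 46 and 25 on day 1, 46, 38 and 45 on day 3, and 27, 12 and 27 on day 7 (1.84, 0.995 and 1.79 CPM). Reads in KO libraries numbered 56, 41 and 30 on day 0 (4.03, 4.15 and 2.32 CPM), 22, 32 and 28 on day 1, 39, 36 and 23 on day 3, and 18, 17 and 47 on day 7 (1.03, 1.32 and 3.00 CPM). The groups of days 0 and 7 overlapped in both genotypes. The log2 value on day 7 was -0.50 (standard error 0.47, adjusted p = 0.382 in edgeR) in WT and -0.97 (0.46, 0.081) in KO cells. Isolation 3 decided the KO value, which became -1.48 (adjusted p = 0.024 in edgeR) when the day 7 libraries of that isolation were left out.

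Axin2 and Lef1, both known as direct targets of the canonical branch, moved in opposite directions. The 250 bases before their start sites are shown because both genes are textbook targets of TCF/LEF factors, which recognize the letters CTTTG followed by AT or TT. The stretches are from RefSeq on GRCm38.p6, plus strand, at chr11:108920099-108920348 for Axin2 and chr3:131110073-131110322 for Lef1 (the entry nearest the annotated start of 4 for this gene), with the core CTTTG, or its reverse complement CAAAG, in capitals.
Axin2: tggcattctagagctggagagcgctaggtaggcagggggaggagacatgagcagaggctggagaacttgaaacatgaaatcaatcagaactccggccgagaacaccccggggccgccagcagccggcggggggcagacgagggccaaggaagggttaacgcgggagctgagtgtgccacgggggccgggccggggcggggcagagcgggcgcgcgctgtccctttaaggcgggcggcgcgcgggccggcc
Lef1: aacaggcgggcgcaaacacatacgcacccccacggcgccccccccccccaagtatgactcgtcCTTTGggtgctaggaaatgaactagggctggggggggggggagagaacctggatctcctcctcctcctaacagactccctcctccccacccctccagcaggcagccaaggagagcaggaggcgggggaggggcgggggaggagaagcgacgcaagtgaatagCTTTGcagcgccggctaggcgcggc
The core occurred at 187 and 25 bases before the start of the RefSeq entry used for Lef1, and nowhere in the Axin2 stretch. Neither Lef1 match is followed by AT or TT, so the capitals mark the core alone and not the longer site. The stretch of Wnt7a, a member that rose, held no core either. The Lef1 stretch ends short of the gene start at 131110471 in the annotation, while the Axin2 stretch ends next to its gene start. The core was present in 48.6% of the 32851 reference stretches of this kind, and in 4 of the 8 listed for 5 members. It was chosen as a search after these windows had been seen. Whether it bears on the direction of either gene was not tested. The longer forms CTTTGAT and CTTTGTT, searched on both strands from 250 bases before to 50 bases after the start, were in 9.33% of all windows and in none of the 8 windows listed for 5 members (Axin2, Lef1, Lgr4, Wnt4 and Wnt7a). These are matches of letters only.

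Axin2 (ENSMUSG00000000142, plus strand, chr11:108920349-108950783) encodes a scaffold of the β-catenin destruction complex. WT libraries had 133, 65 and 70 reads on day 0 (8.46, 7.04 and 7.75 CPM), 17, 11 and 13 on day 1 (1.25, 0.919 and 0.883 CPM), 6, 14 and 10 on day 3, and 3, 4 and 3 on day 7 (0.204, 0.332 and 0.199 CPM). KO libraries had 88, 74 and 129 reads on day 0 (6.33, 7.49 and 9.97 CPM), 15, 4 and 16 on day 1, 4, 14 and 9 on day 3, and 1, 4 and 2 on day 7 (0.0572, 0.311 and 0.128 CPM). Every cultured library lay below every day 0 library. The log2 fold change in WT cells was -2.92 on day 1 (standard error 0.50, adjusted p = 6.1e-05 in edgeR), -3.62 on day 3 (0.52, 6.5e-06) and -4.95 on day 7 (0.58, 3.7e-07). In KO cells it was -3.08, -3.73 and -5.58 on these days, and the last became -6.29 without isolation 2. No step between later days passed the test.

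Lef1 (ENSMUSG00000027985, plus strand, chr3:131110471-131224356) encodes a DNA-binding partner of β-catenin. WT cells had 4, 3 and 0 reads on day 0 (0.254, 0.325 and 0 CPM), 17, 7 and 7 on day 1 (1.25, 0.585 and 0.475 CPM), 60, 42 and 45 on day 3 (3.94, 2.72 and 2.55 CPM), and 43, 48 and 109 on day 7 (2.93, 3.98 and 7.22 CPM). KO cells had 5, 3 and 0 reads on day 0, 9, 4 and 0 on day 1, 27, 38 and 10 on day 3 (1.85, 2.29 and 0.704 CPM), and 76, 20 and 138 on day 7 (4.35, 1.56 and 8.80 CPM). The libraries of days 3 and 7 lay above those of day 0 in both genotypes, and isolation 3 was the highest on day 7. The day 0 groups held 7 (WT) and 8 (KO) reads, so that the fold changes rest on few counts. The log2 fold change in WT cells was 1.89 on day 1 (standard error 0.99, adjusted p = 0.114 in edgeR), 3.87 on day 3 (0.95, 0.0017) and 4.49 on day 7 (0.95, 4.0e-04). In KO cells it was 0.62 on day 1 (adjusted p = 0.642 in edgeR), 2.84 on day 3 (0.93, 0.015) and 4.43 on day 7 (0.93, 3.7e-04). The KO call of day 3 was lost without isolation 1 (adjusted p = 0.061 in edgeR) or isolation 2 (0.114). Without isolation 3 the day 7 value was 3.56 in WT and 3.12 in KO cells, and without isolation 1 or 2 it was 5.16 in KO cells, all past the threshold.

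**Figure D2:**
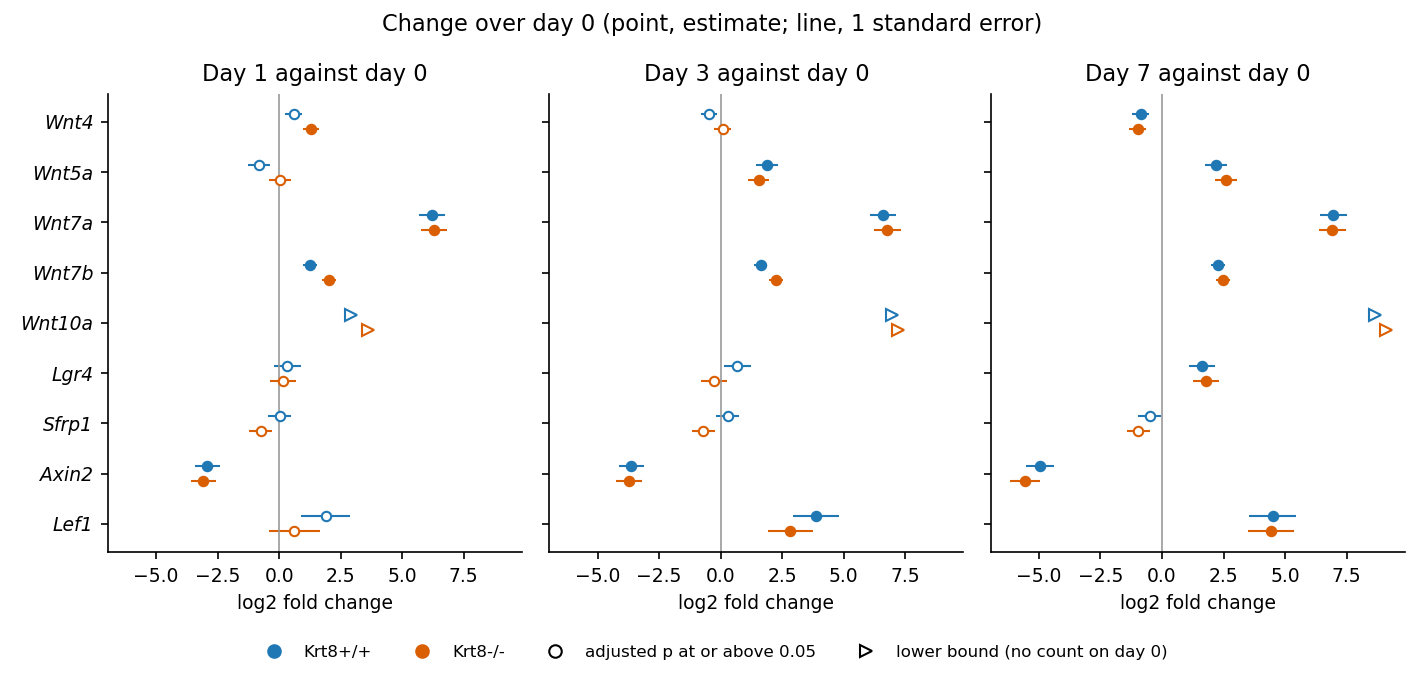
Log2 fold change over day 0 on the horizontal axis for each gene, by day (panels) and genotype (blue WT, orange KO). Points are edgeR estimates with lines of 1 standard error, open circles did not pass the test, and triangles for Wnt10a are lower bounds. On day 7 all members except Sfrp1 passed in both genotypes, with Axin2 at -4.95 in WT and -5.58 in KO cells.

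From day to day, 3 members passed between days 1 and 3 in WT cells (Wnt5a and Wnt10a higher, Wnt4 lower), where 26.3% of all genes did (14.4% higher and 11.9% lower). The same 3 genes passed in KO cells, where 23.6% of all genes did (13.4% higher and 10.2% lower). Between days 3 and 7, Wnt10a alone passed in WT cells, beside 6.58% of all genes (3.11% higher and 3.47% lower). In KO cells Wnt10a and Lgr4 passed, beside 10.5% of all genes (4.40% higher and 6.15% lower). Lgr4 rose there by a log2 fold change of 2.06 (standard error 0.53, adjusted p = 0.015 in edgeR), a call that was lost without any 1 isolation (1.59 to 2.60, adjusted p = 0.067 to 0.129 in edgeR) and without the day 7 libraries of isolation 3 (1.91, 0.053). With isolation as a block, the fit that pairs libraries of the same date, Wnt4 was one more member called in KO cells between days 3 and 7 (-1.04, adjusted p = 0.046 in edgeR, against -1.07 and 0.051 without the block). DESeq2 called it too (-1.07, adjusted p = 0.023), and added Lef1 between days 1 and 3 in WT (1.96, 0.036) and KO cells (2.19, 0.033), where edgeR gave adjusted p values of 0.071 and 0.072.

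Levels of different genes were compared as CPM per kilobase of exon. On day 0 in WT cells Wnt7b stood first at 8.24 ± 0.734 (SD, n = 3), above all libraries of the other 8 genes. It was followed by Axin2 (1.41 ± 0.128), Wnt4 (1.40 ± 0.496) and Wnt5a (1.11 ± 0.587), whose libraries overlapped. The remaining genes were at 0.494 ± 0.228 (Sfrp1) or less, down to 0.0220 ± 0.0195 for Lef1 and 0 for Wnt10a. On day 7 Wnt7a (41.2 ± 11.3) and Wnt7b (40.2 ± 12.8) were first and overlapped, then came Wnt10a (14.5 ± 1.96) and Wnt5a (5.17 ± 1.66), each apart from the next gene in the order. Axin2, in second place on day 0, was last on day 7 at 0.0445 ± 0.0137. KO cells gave the same first 4 genes on both days.

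Because Wnt5a and Lef1 are known to be expressed by fibroblasts too, the markers of fibroblasts and pericytes are given beside them. The 9 markers (Col1a1, Col1a2, Col3a1, Dcn, Lum, Pdgfra, Pdgfrb, Tcf21 and Postn) summed to 298 to 999.5 CPM in the WT libraries of day 0, 145 to 265 CPM at day 1, 1036 to 1803 CPM at day 3 and 908 to 1985 CPM at day 7. The KO sums at these days were 335 to 734, 100.5 to 185, 636.5 to 1320 and 848 to 3264 CPM. None of the 9 was without counts in any group. In each genotype, 4 of the 9 had all day 7 libraries above all day 0 libraries, 2 had them below, and 3 overlapped. Col1a1 went from 22.5, 38.9 and 100.4 CPM on day 0 to 375, 431 and 760 CPM on day 7 in WT cells, sorted from low to high, while Dcn went from 121, 213 and 299 to 9.68, 19.3 and 26.6 CPM. Across the 24 libraries, the log2 sum of the markers correlated with log2 Wnt5a (Pearson r = 0.86) and Lef1 (0.773), and with Wnt10a (0.63), Lgr4 (0.51), Wnt7b (0.174), Wnt7a (0.137), Sfrp1 (0.0745), Axin2 (-0.29) and Wnt4 (-0.64). Over the 18 libraries of days 1 to 7 the values were 0.919 for Wnt5a, 0.919 for Lef1, 0.816 for Wnt10a and -0.726 for Wnt4. The AEC2 markers gave values as far from 0 over the 24 libraries, at -0.881 for Wnt5a, -0.859 for Lef1 and -0.95 for Wnt10a. Over the 18 libraries their values were -0.94 for Wnt5a, -0.773 for Lef1 and -0.903 for Wnt10a. These libraries share days and isolations, so the values are descriptions. The KO library of day 7 in isolation 3 had the highest marker sum (3264 CPM) and the highest Wnt5a and Lef1. Most of that sum was Col1a1 (1260 CPM) and Col1a2 (1473 CPM). Without the day 7 libraries of isolation 3, Wnt5a had a log2 fold change of 2.01 (adjusted p = 0.0011 in edgeR) in WT and 2.38 (2.4e-04) in KO cells. Lef1 had 4.12 (0.0014) and 3.80 (0.0023). The day 7 libraries that stayed in had marker sums of 848 to 1015 CPM, so fibroblast markers were present there too. The part of these cells in the levels of Wnt5a, Lef1, Lgr4 and Wnt10a was not tested.

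**Figure D3:**
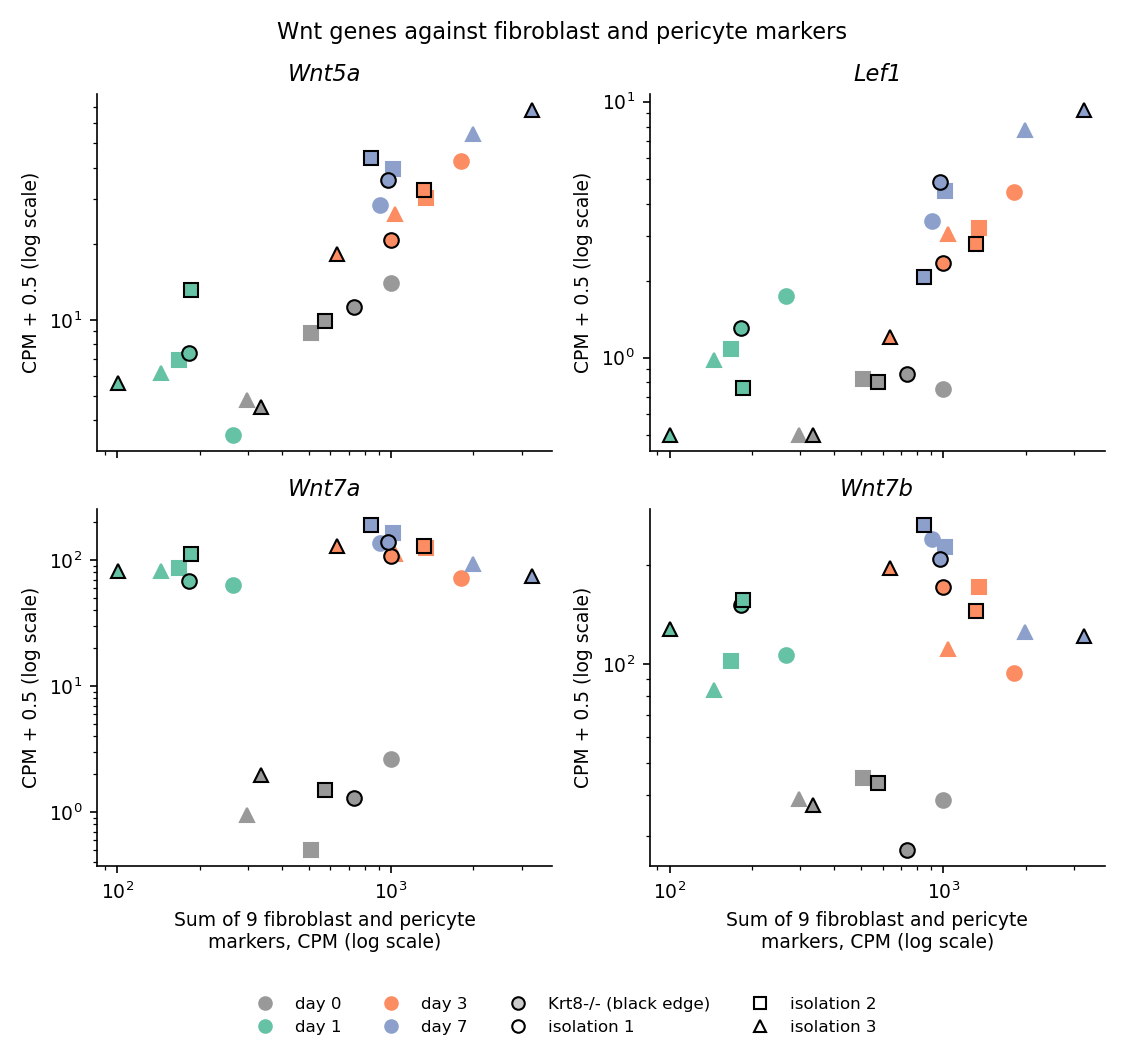
Level of Wnt5a, Lef1, Wnt7a and Wnt7b (CPM + 0.5, log axis) against the summed level of 9 fibroblast and pericyte markers (CPM, log axis), with 1 symbol for each of 24 libraries. Color gives the day, shape the isolation, and a black edge the KO genotype. Wnt5a and Lef1 are highest in the day 7 libraries of isolation 3 (triangles at right), while Wnt7a and Wnt7b are lower there than in the other day 7 libraries.

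Markers of other cell types were summed in the same way. The 7 endothelial markers summed to 3.40 to 33.7 CPM in all groups, the 8 lymphocyte markers to at most 19.2 CPM and the 5 basal cell markers to at most 22.7 CPM. The 7 macrophage markers summed to 6.44 to 170 CPM, and 0 of 7 separated day 7 from day 0 in either genotype. The summed club and ciliated cell markers went from 5501 CPM or more on day 0 to 34.3 CPM or less on day 7, with all 6 markers lower in both genotypes. Their part in Axin2 and Wnt4, which were lower on day 7 too, was not tested. The sum of the 6 transitional markers other than Krt8 went from 634 to 914 CPM on day 0 to 5285 to 6811 CPM on day 1. Across the 24 libraries it correlated with log2 Wnt7a (r = 0.984), Wnt7b (0.948), Wnt10a (0.783), Lef1 (0.627), Wnt5a (0.518) and Lgr4 (0.435). The values were negative for Wnt4 (-0.143), Sfrp1 (-0.374) and Axin2 (-0.948). Over the 18 libraries of days 1 to 7 they were 0.954 for Wnt7a, 0.86 for Wnt7b, 0.712 for Wnt10a and 0.467 for Wnt5a. Lgr4 was then at 0.231, Lef1 at 0.198, Axin2 at -0.44, Sfrp1 at -0.467 and Wnt4 at -0.577. Of 5 mesothelial markers, Msln went from 13.8 to 88.3 CPM on day 0 to 872 CPM or more on day 7, while Calb2 had no count in any group before day 7. In WT cells 2 of the 5 had all day 7 libraries above all day 0 libraries and 3 had them below, and in KO cells 1 was above, 2 were below and 2 overlapped. Their sum went from 66.3 to 205 CPM on day 0 to 879 to 2455 CPM on day 7. Nearly all of the day 7 sum was Msln, at 872 to 2448 CPM, so the rise of the sum is that of 1 gene. Any part of mesothelial cells in the members that rose was not tested.

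No member passed the test between genotypes, and the 2 nearest to it were Wnt4 and Wnt7b on day 1. On day 0, 0 of the 9 passed in edgeR, where 0.0277% of all genes did, and none was past an unadjusted p of 0.05 in edgeR or DESeq2. On day 1, 0 of 9 passed (0.0166% of all genes), with 2 past an unadjusted p of 0.05 in edgeR and in DESeq2. Those were Wnt4, at a log2 difference of 0.69 (KO minus WT, standard error 0.33, 95% interval 0.0027 to 1.38), and Wnt7b, at 0.58 (0.27, 0.0237 to 1.14), both higher in KO cells in 3 of 3 isolations and both with an adjusted p of 1 in edgeR. The WT and KO libraries of day 1 did not overlap for Wnt7b, at 83.2 to 106 against 127 to 156 CPM, and they did for Wnt4. On day 3 the Lef1 libraries did not overlap, at 2.55 to 3.94 CPM in WT and 0.704 to 2.29 CPM in KO cells. In every other comparison of a member between genotypes on a single day the libraries overlapped. The share of all genes without overlap is not given here, and 3 against 3 libraries can separate by chance, so these 2 separations are descriptions only. On days 3 and 7, 0 of 9 passed, with 0.0166% of all genes on each day, and none was past an unadjusted p of 0.05 with either tool. Over days 1 to 7 together, weighted 0.167, 0.5 and 0.333, 0 of 9 passed beside 0.0277% of all genes, and 0 passed unadjusted with edgeR or DESeq2. The 95% intervals of that difference were -0.0244 to 0.667 for Wnt7b, -0.104 to 0.780 for Wnt4, -0.330 to 0.646 for Wnt7a, -0.244 to 0.850 for Wnt10a, -0.569 to 0.512 for Wnt5a, -0.720 to 0.616 for Lgr4, -0.706 to 0.497 for Sfrp1, -1.01 to 0.489 for Axin2 and -1.61 to 0.345 for Lef1, all as log2 KO minus WT. With isolation as a block, which pairs the libraries, 1 member was past an unadjusted p of 0.05 on day 3 and 1 over days 1 to 7. That member was Wnt7b in both, at 0.50 (95% interval 0.00064 to 0.991) and 0.34 (0.034 to 0.65), with an adjusted p of 1 in edgeR. The test of whether the genotype difference changed with day called 0 of 9 members, with 0.00554% of all genes called, and none was past an unadjusted p of 0.05 in edgeR or DESeq2.

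**Figure D4:**
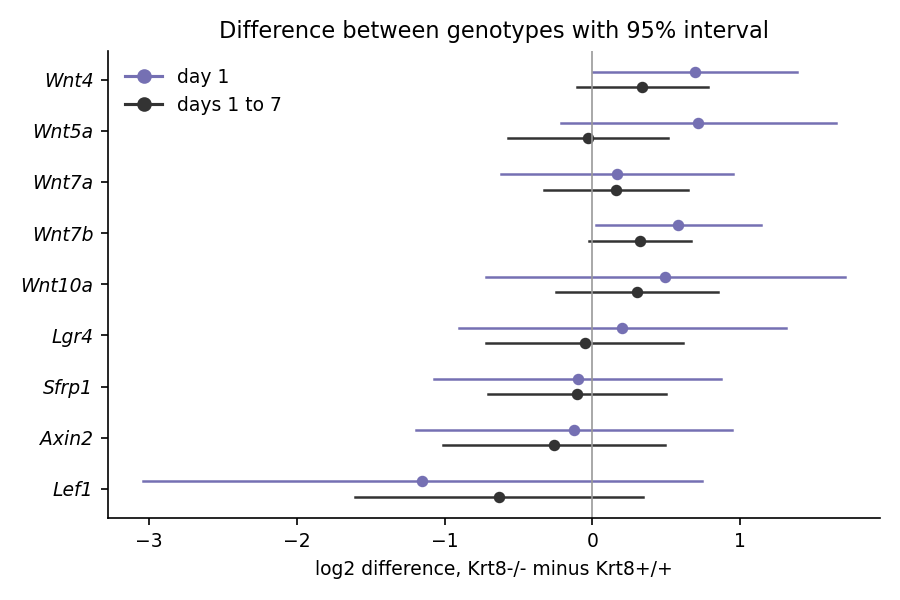
Log2 difference between genotypes (KO minus WT) on the horizontal axis for each gene, with 95% intervals from the edgeR fit, on day 1 (purple) and over days 1 to 7 (dark). All intervals over days 1 to 7 include 0, and on day 1 those of Wnt4 (from 0.0027) and Wnt7b (from 0.0237) lie just above it.

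The wider pathway was described with 107 genes in lists by role, of which 91 were tested. At days 1, 3 and 7, WT cells had 11, 23 and 27 of the 91 higher and 40, 30 and 32 lower than at the start. KO cells had 13, 22 and 26 higher and 41, 32 and 33 lower, and between genotypes over days 1 to 7 they were 0 and 0, with 2 past an unadjusted p of 0.05 in edgeR. On day 7, 64.8% of the 91 were called in each genotype, beside the 58.8% (WT) and 58.5% (KO) over all genes given above. On days 1 and 3 the shares in WT cells were 56% and 58.2%, beside 54.7% and 54.0% over all genes. In KO cells they were 59.3% on both days, beside 50.6% and 52.0%. The lists were also chosen with earlier results of these data known, so their shares are descriptions.

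Of 19 ligand genes 12 were tested, and in WT cells 9 were higher and 0 lower on day 3, and 7 higher and 1 lower on day 7, with a median log2 fold change of 2.24 on day 7. The 75% called on day 3 compares with 54.0% of all genes (26.1% higher and 27.8% lower). The 66.7% called on day 7 compares with 58.8% of all genes (28.6% higher and 30.2% lower). Beside the members, Wnt9a (3.96, standard error 0.38, adjusted p = 2.6e-08 in edgeR), Wnt11 (2.34) and Wnt10b (4.98, 0.87, 1.1e-04) were higher in WT cells on day 7. With 0.5 CPM added to each level, the changes of Wnt10b within isolations were 2.515, 2.484 and 2.786. The size of its change thus depends on how low levels are handled. Porcn, the enzyme that attaches the lipid to Wnt proteins, fell from 27.9 ± 8.61 to 2.74 ± 0.598 CPM (SD, n = 3) in WT and from 31.7 ± 1.80 to 2.05 ± 0.565 CPM in KO cells between days 0 and 7. For Wls, the carrier that takes Wnt proteins to the cell surface, the log2 fold change over day 0 in WT cells was -1.60 on day 1 (standard error 0.17, adjusted p = 2.0e-07 in edgeR), -0.46 on day 3 (0.025) and -0.24 on day 7 (0.228). KO cells had -1.60 (2.3e-07), -0.30 (0.150) and -0.10 (0.646). Among R-spondins, Rspo1 fell from 7.74 ± 3.31 to 0.151 ± 0.133 CPM in WT cells (log2 fold change -5.66, adjusted p = 1.5e-05 in edgeR), and Rspo3 went from 1 read in the 3 WT libraries of day 0 to 115 on day 7.

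Of 20 receptors and co-receptors tested, 9 were higher and 6 lower on day 7 in WT cells and 10 and 6 in KO cells, which is 75% and 80% of the list against the 58.8% and 58.5% of all genes. Lgr6, a relative of Lgr4 in the R-spondin receptors, was at 0.886 ± 1.12 CPM on day 0, 38.0 ± 18.7 on day 3 and 73.2 ± 17.6 CPM on day 7 in WT cells (log2 fold change 6.45, standard error 0.87, adjusted p = 2.3e-06 in edgeR). Lgr5, the third receptor of that kind, had 48 reads on day 0 and 0 on day 7 in WT cells, and 21 and 0 in KO cells. Of these day 0 reads, 38 of the 48 and 15 of the 21 were in a single library of each genotype. Ror2, a receptor of Wnt5a, went from 0.206 ± 0.268 to 5.83 ± 1.61 CPM between days 0 and 7 in WT cells (4.51, adjusted p = 4.7e-05 in edgeR), and the Frizzled gene Fzd8 fell from 44.7 ± 2.08 to 13.7 ± 2.88 CPM (-1.71, 2.2e-07).

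Of 12 secreted and surface inhibitors tested, 3 were higher and 4 lower on day 7 in WT cells, a share of 58.3% that lies at the background of all genes. Notum, an enzyme that removes the lipid from Wnt proteins, had 1117 reads on day 0 and 3 on day 7, and Wif1, which binds Wnt ligands, had 396 and 6. Dkk2, an inhibitor of the co-receptors, was at 0.127 ± 0.220 CPM on day 0 and 6.69 ± 1.79 on day 7, and Frzb, a relative of Sfrp1, went from 2 to 72 reads. Of 16 genes of the cytoplasmic core, 3 were higher and 6 lower, a share of 56.2% that is also at background. Nkd1, a feedback inhibitor of Dishevelled, fell from 252 ± 17.7 to 3.64 ± 1.501 CPM in WT cells and from 217 ± 16.6 to 2.96 ± 0.616 CPM in KO cells (log2 fold changes -6.10 and -6.20, adjusted p = 4.8e-09 and 4.4e-09 in edgeR), while its relative Nkd2 went from 0.301 ± 0.287 to 2.66 ± 1.05 CPM (2.98, 0.0020). Apc, a scaffold of the destruction complex, fell by 1.16 on the log2 scale, and Tnks, an enzyme that marks axins for degradation, rose by 0.84.

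Of 12 nuclear factors, Lef1 was the only one higher on day 7 in WT cells, and 7 were lower (66.7% called, 58.8% over all genes). Tle2, a co-repressor, fell from 144 ± 46.1 to 3.79 ± 1.14 CPM (-5.24, adjusted p = 1.0e-06 in edgeR) and Pygo1, a co-activator, from 53.6 ± 9.75 to 2.93 ± 1.40 CPM (-4.18, 1.1e-07). The list of feedback and target genes held 14 genes, some of them also in other lists, and on day 7 in WT cells 4 were higher and 9 lower (92.9% called, 58.8% over all genes), with a median log2 fold change of -2.67. In KO cells 2 were higher and 9 lower (78.6% called, 58.5% over all genes), with a median of -2.62. Axin2, Nkd1, Notum and Lgr5 were among those that fell, and Lef1 and Myc among those that rose. Myc, a growth regulator that many other pathways also induce, was at 9.76 ± 1.24 CPM on day 0, 267 ± 80.7 on day 1 and 148 ± 18.0 CPM on day 7 (3.92, adjusted p = 5.0e-12 in edgeR). Of 9 genes of the planar polarity branch, Vangl1 rose on day 7 in WT cells (0.59, adjusted p = 0.0094 in edgeR). Celsr1 (-2.40, 1.6e-05) and Daam2 (-3.86, 4.1e-04) fell there, and 6 did not pass. Thus 33.3% of this list was called, beside 58.8% over all genes.

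**Figure D5:**
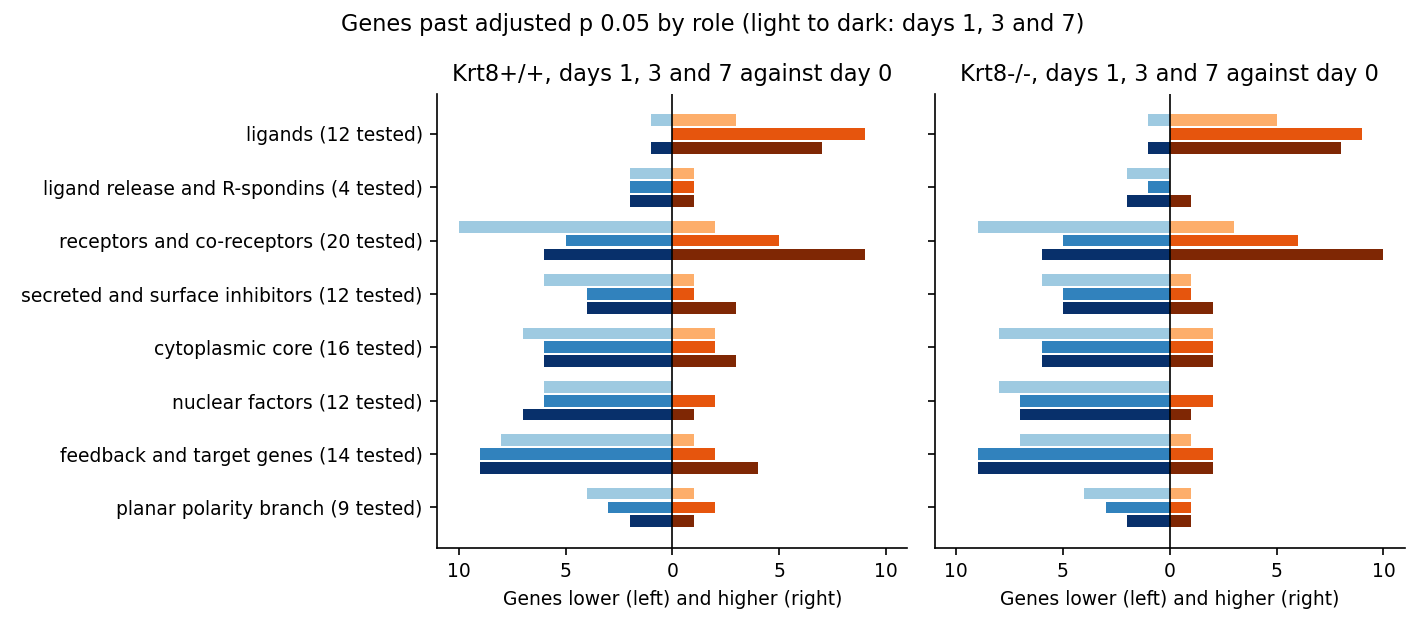
Number of genes in each role list that passed the test lower (blue, left) and higher (orange, right) than on day 0, for days 1, 3 and 7 from light to dark, in WT (left panel) and KO cells (right panel). The number tested is given beside each list. Ligands lie mostly to the right, with 9 higher and 0 lower on day 3 in both genotypes, and feedback and target genes mostly to the left, with 9 lower on days 3 and 7. Over all genes, 54.0% (WT) and 52.0% (KO) were called on day 3, and 58.8% and 58.5% on day 7.

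Genes with the most similar pattern over the 24 libraries were listed by Pearson correlation of log2 CPM among the 18046 genes. For Wnt10a they were Pea15a (r = 0.991) and Tpm2 (0.989), for Wnt7a Chst15 (0.983) and Myl7 (0.978), and for Wnt7b Fbxo17 (0.965) and Spns2 (0.961). Wnt5a was most like Actg2 (0.963), an actin of smooth muscle, and Serpinh1 (0.958), a collagen chaperone. Lef1 was most like Garem2 (0.967) and Bgn (0.957), a matrix proteoglycan, and Lgr4 most like Myh11 (0.881), a smooth muscle myosin, and Arih1 (0.860). Axin2 was most like 5830428M24Rik (0.976) and Tc2n (0.973), Wnt4 most like Entpd5 (0.898) and Uspl1 (0.874), and Sfrp1 most like Gm37940 (0.744) and 1700001L05Rik (0.738). By Spearman correlation the first-named genes stood at 0.678 for Wnt7a, 0.910 for Wnt7b and 0.623 for Sfrp1. The libraries share days and isolations, so these values describe likeness and carry no test.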

How the data were processed

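RNA-seq of 24 libraries was used, from 8 groups with 3 isolations each. The authors deposited raw read counts per Ensembl gene in 1 table. The submitters' processing notes name cutadapt 2.3, STAR 2.7.8a, RSEM 1.3.3 and GRCm38. The sources used here do not give strand or whether the counts are rounded RSEM estimates. Symbols, positions and exon lengths came from GENCODE M21 on the same build, which named 55240 of 55421 identifiers, and 5 reporter entries with 0 counts were left out. Transcripts of Wnt4 and Sfrp1 shared 44 and 2 stretches of 50 bases with other listed genes, and those of the other 7 members none. Antisense genes overlapped exons of Wnt5a, Wnt7b, Axin2 and Lef1, with 2 to 151 counts in all.

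Low genes were removed by filterByExpr at a minimum count of 10 and a minimum total of 15, and counts were scaled with TMM and fitted in 1 quasi-likelihood model (edgeR 4.0.16, R 4.3.3) with 16 residual degrees of freedom. The standard error is the absolute log2 fold change over the square root of F. DESeq2 1.42.0 and the other settings were alternatives. The procedure was tested on simulated counts. The members, lists and alternatives were chosen with earlier results of these data known. Other genes were named by size: up to 2 in each direction per role list with the largest called change on day 7 in WT cells in 3 of 3 isolations; Wnt9a, Wnt11, Wnt10b and Wls were chosen after their values were seen. Libraries share codes in their labels that were read here as isolation dates, and the pairing rests on that reading. Between libraries with the same code, the correlation across genes of deviations from group means was -0.035 to 0.383 between days. It was 0.057 to 0.548 between genotypes. Chi-square per gene between libraries of 1 group was 9.74 to 114.6 over 24 pairs, so none was a duplicate.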

Additional observations from a re-analysis of the deposited data

Results flagged for a closer look

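In 4 of 99 pairs of effects examined, every isolation moved one way in one and the opposite way in the other. The share of such pairs over all genes is not given here, so the 4 are descriptions. Wnt4 on day 3 was below day 0 in WT cells (-0.47 on the log2 scale) and above it in KO cells (0.08), a difference of 0.55. Those KO changes were small within isolations, at 0.0059, 0.18 and 0.0054 in the order of the isolations. Wnt7b in KO minus WT cells was -0.18 on day 0 and 0.58 on day 1, a difference of 0.76. Lgr4 from day 1 to day 3 changed by 0.35 in WT and -0.40 in KO cells, a difference of -0.75. Sfrp1 in KO minus WT cells was 0.67 on day 0 and -0.31 on day 3, a difference of -0.99. The difference itself was not tested for these pairs of days; edgeR's test of genotype by day over all 4 days gave unadjusted p values of 0.261, 0.181, 0.468 and 0.480 for the 4 genes in this order, with an adjusted p of 1.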

How the results depend on the processing

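For the 9 members, 92 values were recomputed in 743 checks, of which 701 kept direction and side of the threshold, 25 lost a call, 3 gained one and 11 turned direction (3 correlations moved). DESeq2's size factors, the DESeq2 test and the replicate block turned none of the directions; the block, which pairs libraries of 1 isolation, added the Wnt4 call given above and changed no other member's call, and the DESeq2 test added that call and the 2 Lef1 calls given above. With single isolations left out, Sfrp1 on day 1 in WT cells (0.03) ranged from -0.79 to 0.74 and, in KO cells, Wnt5a on day 1 (0.04) from -0.20 to 0.42, Lgr4 on day 1 (0.15) from -0.37 to 0.95 and Lgr4 on day 3 (-0.26) from -0.58 to 0.42. KO minus WT over days 1 to 7 ranged from -0.25 to 0.10 for Wnt5a (-0.03) and from -0.27 to 0.050 for Lgr4 (-0.05). None of these passed the test. Without the day 1 libraries of isolation 2, chosen after seeing the data, Sfrp1 became -0.50 and Wnt5a -0.32. Members called between days 3 and 7 numbered 0 to 1 in both genotypes with isolations left out, against 1 in WT and 2 in KO cells, and 2 and 1 without the day 7 libraries of isolation 3, also chosen after seeing the data; between days 1 and 3 in KO cells they numbered 1 to 2 against 3. Among all genes, calls between days 1 and 3 in WT cells fell from 4740 to 2879 with only the libraries compared and to 2614 to 3085 with isolations left out, where fewer libraries entered. The latter ranges were 1842 to 2691 in KO cells (4252), and between days 3 and 7 they were 325 to 572 in WT (1188) and 834 to 969 in KO cells (1903). Genes called between genotypes on day 0 (5) numbered 9 with DESeq2, 10 with no filter on low counts and 2 to 5 with isolations left out; on day 1 (3) 5, 6 and 2 to 5; on day 3 (3) 8 with DESeq2 and 3 to 5; on day 7 (3) 2 to 5. Over days 1 to 7 (5) they numbered 17 with DESeq2, 11 with no filter and 9 with the replicate block, and for genotype by day (1) 3, 2 and, with isolations left out, 0. The causes were not tested. Low counts limit Axin2 on day 7, Lef1 on days 0 and 1, and Wnt7a and Wnt10a on day 0.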
